A study of Mus musculus with 8 samples.

Results

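The 1885 regions described here carried a listed H4K12la peak in every microglia library and in both libraries of 5XFAD total brain cells, but in neither library of WT total brain cells. They were found by joining the peaks of all 8 deposited lists where they shared 1 base or more, which gave 73400 merged regions, and by keeping those with this pattern of presence and absence. The members were 2.57% of all merged regions and 11.3% of the 16732 regions that every microglia list held. Presence and absence of peaks chose the members, so these calls, and the scores and widths of the same total cell peaks, are given as description and were not tested.

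H4K12la, lactylation of histone H4 at lysine 12, was mapped by CUT&Tag in 4 groups of 2 libraries. These were CD11b-bead microglia of 5XFAD mice, CD11b-bead microglia of WT mice, all cells of the dissociated brain of 5XFAD mice, and the same preparation of WT mice. All brains were perfused, stripped of the cerebellum, dissociated with enzymes and cleared of myelin before use. 5XFAD mice carry mutated human transgenes under a Thy1 promoter, which is active mainly in neurons, and are used as a model of amyloid deposition. No label used here names a further allele, an agent, an age or a sex. Whether the 2 libraries of a group stand for separate animals, or for pooled ones, is not stated in the labels.

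Microglia are the resident macrophages of the brain and clear debris, synapses and amyloid. CD11b, the product of Itgam, is also on other myeloid cells, so beads against it enrich microglia without excluding those. Histone lactylation attaches a lactate-derived group to lysines, is placed by acyltransferases such as p300, and is found mostly at active promoters and enhancers. In CUT&Tag an antibody brings a Tn5 transposase to the mark, and the DNA beside it is cut and sequenced. Total brain cells hold microglia as a minority beside neurons, astrocytes, oligodendrocytes and vascular cells. A microglial region that gains a listed peak in total cells can reflect, among other possibilities, more microglia or more mark per cell. In these bulk preparations such possibilities cannot be told apart, and none was tested.

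The lists were of unequal length, with 29947 and 41783 peaks for 5XFAD microglia, 22300 and 33500 for WT microglia, 32967 and 22807 for 5XFAD total cells, and 25271 and 22543 for WT total cells. Read depth is unknown from these files, so a missing peak means only that none was listed. The label of the microglia preparation was checked against marker genes. A region held by all 4 microglia lists lay in 21 of 24 homeostatic microglia genes, 1 of 19 markers of other leukocytes, 2 of 19 neuronal markers, 3 of 13 astrocyte markers, 3 of 15 oligodendrocyte markers, 3 of 15 vascular markers and 0 of 20 genes of other tissues. Such a region also lay in 9 of 15 ubiquitous genes, and in 8266 of 21887 protein-coding genes (37.8%). Being in every microglia list does not make a region specific to microglia, since 5288 regions had a peak in all 8 libraries.

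Promoters of 4 genes show the kind of sequence that lay under members at gene starts. They are the 4 of 9 genes of the lists described further on with a start site under a member whose 250 upstream bases overlap no annotated gene. The other 5 were C5ar1, Tlr6, Kat7, Atp6v1a and Tfe3, and their sequences are not shown. Each line gives the bases before the start site from RefSeq (GRCm38.p6), 5′ to 3′ in the direction of the gene, and capitals mark matches to the motifs named after them.
Ccl12, a chemokine that attracts monocytes, chr11:82101595-82101844, plus strand: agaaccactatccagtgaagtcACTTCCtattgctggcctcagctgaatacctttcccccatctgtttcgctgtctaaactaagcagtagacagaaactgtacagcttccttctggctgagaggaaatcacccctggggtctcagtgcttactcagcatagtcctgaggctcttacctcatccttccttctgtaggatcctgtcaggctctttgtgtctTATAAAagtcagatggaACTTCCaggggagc
Lgals3, which encodes the lectin galectin-3, chr14:47373610-47373859, plus strand: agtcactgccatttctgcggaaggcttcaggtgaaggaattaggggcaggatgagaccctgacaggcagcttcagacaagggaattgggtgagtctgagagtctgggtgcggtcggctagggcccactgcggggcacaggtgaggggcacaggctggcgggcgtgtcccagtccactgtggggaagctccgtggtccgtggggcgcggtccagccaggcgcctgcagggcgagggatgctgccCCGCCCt
Rab5c, a small GTPase of early endosomes, chr11:100738216-100738465, minus strand: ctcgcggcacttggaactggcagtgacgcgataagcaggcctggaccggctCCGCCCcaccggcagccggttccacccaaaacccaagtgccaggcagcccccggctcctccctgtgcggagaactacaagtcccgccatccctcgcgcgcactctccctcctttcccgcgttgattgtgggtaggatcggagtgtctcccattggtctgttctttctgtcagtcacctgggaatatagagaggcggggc
H2-D1, an MHC class I heavy chain, chr17:35262844-35263093, plus strand: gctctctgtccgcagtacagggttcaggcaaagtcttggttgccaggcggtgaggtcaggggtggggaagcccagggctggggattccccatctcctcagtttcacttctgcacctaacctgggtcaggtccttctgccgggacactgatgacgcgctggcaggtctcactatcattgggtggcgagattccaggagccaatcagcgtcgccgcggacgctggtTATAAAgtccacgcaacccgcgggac
Capitals mark the ETS core (GGAAGT, or ACTTCC on the other strand) and the TATA motif (TATAAA) in Ccl12, the Sp/KLF motif (GGGCGG, or CCGCCC on the other strand) in Lgals3 and Rab5c, and the TATA motif in H2-D1.

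The peaks of 5XFAD total cells covered 208 and 213 of the 250 bases upstream of Ccl12, 213 and 198 of those of Rab5c, and 171 and 114 of those of H2-D1. Upstream of Lgals3 they covered 150 and 4 bases, while the microglial peaks covered 112 and 250 bases in 5XFAD and 0 and 0 in WT, where they lay inside the gene. Upstream of Ccl12 the microglial peaks covered all 250 bases in all 4 libraries. In the 5 genes not shown, the 5XFAD total cell peaks covered 0 and 0 bases in C5ar1 and Tlr6, 0 and 169 in Kat7, 16 and 55 in Atp6v1a, and 31 and 31 or 0 and 118 at the 2 starts of Tfe3. H2-D1 belongs to the MHC class I family, whose members are close in sequence, and how reads were shared between such copies is not given in the sources used here.

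Members overlapped 245 of the 21263 promoter sequences in the table (250 bases before to 50 after the start), from 216 genes. Of these, 34.3% held the ETS core, against 46.8% of the 186 promoters under regions seen in the microglia lists only, 33.4% of the 3097 promoters under regions of all 8 lists, and 24.8% of all promoters. ETS factors include PU.1, the macrophage lineage factor; its longer motif GAGGAAGT, which contains the ETS core, was in 4.9% of member promoters, 6.45% of microglia-only promoters, 3.16% of all-8 promoters and 3.13% of all. The Sp/KLF motif was in 57.6%, 39.2%, 63% and 46.2% of the promoters of these 4 sets, in the same order, and the TATA motif in 9.39%, 15.1%, 5.13% and 12.6%. The median number of CG dinucleotides was 18 in member promoters, 11 in microglia-only promoters, 21 in all-8 promoters and 13 in all. By both the Sp/KLF motif and CG content, member promoters therefore lay between the microglia-only set and the set of all 8 lists. The AP-1 motif (TGANTCA) was in 6.94% of member promoters and 6.99% of all, the IRF motif (GAAA, any 2 bases, GAAA) in 4.49% and 3.35%, the C/EBP motif (TTGCNNAA) in 10.6% and 10.2%, and the CRE (TGACGTCA) in 2.45% and 2.23%. Both strands were searched, and a match is a string of letters and not a shown binding site.

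Among regions held by every microglia list, peaks that were in 5XFAD total cells and not in WT total cells far outnumbered the opposite. There were 1885 members (11.3% of 16732), and 138 regions (0.825%) had a peak in both WT and neither 5XFAD total cell library, a ratio of 13.7. The ratio followed the number of microglia lists that held the region. It was 4.75 for regions in 3 microglia lists (537 and 113 regions), 2.71 for those in 2 (377 and 139), 1.44 for those in 1 (341 and 236) and 0.488 for those in none (878 and 1800). For regions in no microglia list the direction turned when a 5XFAD total cell library was left out, to 1.2 without the first and 3.03 without the second. The ratio was 0.219 without the first WT total cell library and 0.172 without the second. A side with 1 library keeps more regions by construction, so these shifts are partly built in. Members thus made up 46.9% of the 4018 regions listed in both 5XFAD and neither WT total cell library, while their opposites made up 5.69% of the 2426 regions listed the other way.

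**Figure D1:**
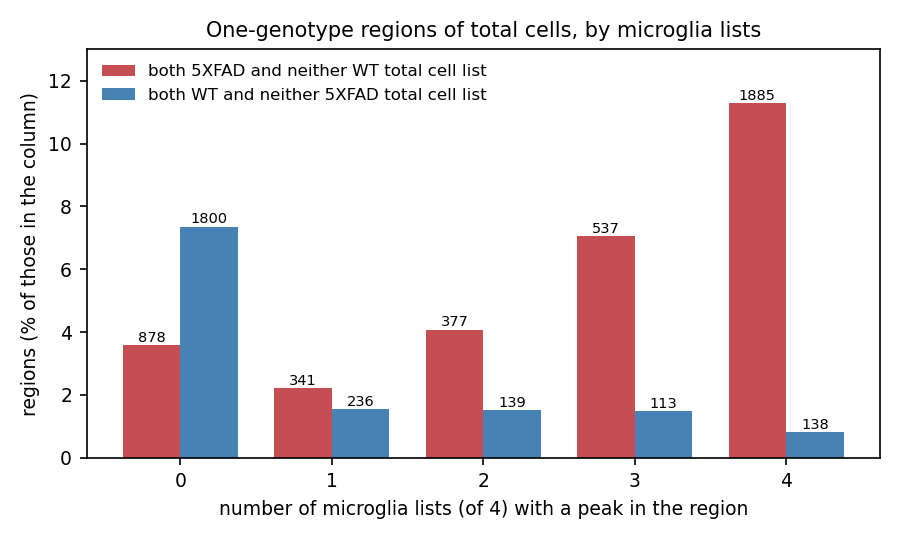
Share of merged regions (vertical axis, %) with a peak in both 5XFAD and neither WT total cell list, beside both WT and neither 5XFAD list, grouped by how many of the 4 microglia lists held the region (horizontal axis). The 5XFAD bars reach 11.3% at 4 microglia lists and the WT bars are highest, at 7.36%, where no microglia list held the region.

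Over all regions held by every microglia list, a peak was listed more often in each 5XFAD than in each WT total cell list. These regions include the members, which were chosen by the same calls, so the shares are no separate support. A peak was listed at 71.5% and 58.5% of the 16732 regions in 5XFAD total cells, against 47% and 43.7% in WT total cells. The second 5XFAD list, with 22807 peaks, held 58.5% of these regions, and the first WT list, with 25271 peaks, held 47%. List length is not read depth, which is unknown, and the part of either in these shares was not tested. With the 22300 highest-scoring peaks of every list, 1433 members and 156 opposite regions were found, a ratio of 9.19. Leaving out a library drops 1 requirement of the rule, so such counts can rise by construction. Without 5XFAD total cells 1 there were 2456 members and 654 opposite regions (ratio 3.76), and without 5XFAD total cells 2 there were 3748 and 248 (15.1). Without WT total cells 1 there were 2933 and 336 (8.73), without WT total cells 2 there were 2575 and 390 (6.6), and without WT microglia 1 there were 2274 and 215. With the higher-scoring 50% of each list, 985 members and 51 opposite regions were left.

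The members ranked high among microglial peaks and in the middle of the total cell lists. The score comes from the authors, 1 value for each peak, and was read here only as a percentile within its list. The median member stood at percentile 76.5 and 84.0 in 5XFAD microglia and 66.7 and 78.1 in WT microglia, while it stood at 59.2 and 48.0 in 5XFAD total cells. All 16732 regions had medians of 68.8, 77.9, 60.1 and 73.5 in the same 4 microglia lists. Regions of all 8 lists were near the members in microglia (79.4, 85.7, 73.6 and 82.6) but ranked far above them in 5XFAD total cells, at 88.2 and 82.1. Microglia-only regions ranked lower in microglia, at 50.6, 64.6, 42.1 and 59.1, and so did the opposite set, at 54.1, 65.7, 43.3 and 63.9. The opposite set stood at 45.8 and 43.5 in the WT total cell lists that held it.

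**Figure D2:**
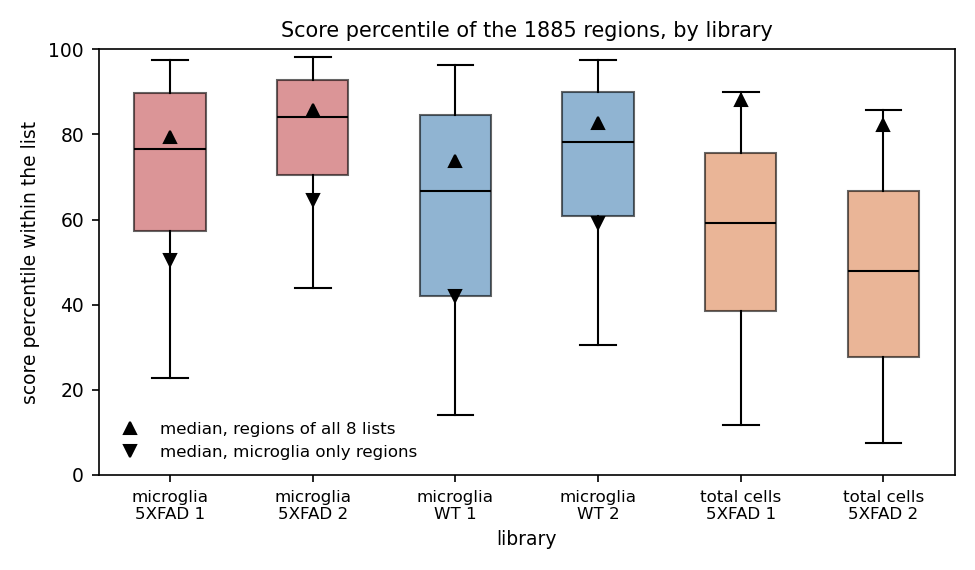
Distribution of the score percentile (vertical axis, percentile within the list) of the 1885 members in the 6 libraries that hold them (horizontal axis), with the medians of regions of all 8 lists and of microglia-only regions as markers. Members sit near the all-8 medians in microglia and well under them in 5XFAD total cells, where the members' medians are 59.2 and 48.0.

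Member peaks in total cells reached down to the lowest score listed. They were below the median of the list for 38.8% of members in 5XFAD total cells 1 and 52.4% in 5XFAD total cells 2. The score was under 25 in at least 1 of these 2 lists for 34 members (1.80%), the lowest listed score being 20. The share of all listed peaks under 25 was not counted. A score of 50 or more in both lists was found for 812 members (43.1%). The lowest values just inside the rule were those of members in Pak2, a kinase of the actin cytoskeleton, and Maml3, a Notch coactivator, each with a score of 20 in WT microglia 2, and in St6gal1, a sialyltransferase, with a score of 20 in 5XFAD total cells 1. Just outside the rule were 1864 regions of all 4 microglia lists found in 5XFAD total cells 1 alone, with a median percentile of 40.0, and 568 found in 5XFAD total cells 2 alone, with 31.9. A further 1048 regions failed only because of a peak in WT total cells 1 and 691 only because of one in WT total cells 2. Their median percentiles were 70.6 and 58.1 in the 5XFAD total cell lists against 43.4 in WT total cells 1, and 68.9 and 59.3 against 38.5 in WT total cells 2.

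Within a member, the total cell peak lay inside the microglial peak and near its centre. The centres of the highest-scoring 5XFAD total cell and microglial peaks were a median of 156 bp apart (interquartile range 72 to 316). For comparison, the centres were 90 bp apart (34 to 209) between the 2 5XFAD total cell lists and 102 bp (42 to 219) between 5XFAD microglia 1 and WT microglia 1. In 88.9% of members all bases of the 5XFAD total cell peaks fell inside microglial peaks, and they covered a median of 42.3% of the microglial bases. The peaks of the 2 total cell lists shared bases in 94.0% of members. Median covered lengths were 970 and 1258 bp in 5XFAD microglia and 781 and 1049 bp in WT microglia, with 451 and 331 bp in 5XFAD total cells.

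Few members had a WT total cell peak just beyond their edge. The nearest one was a median of 11002 bp away (interquartile range 4992 to 23848, minimum 27). It lay within 1 kb for 84 members (4.46%) and within 5 kb for 472 (25%), close to the 5.02% and 28.7% of the 3307 microglia-only regions. Requiring no such peak within 1 kb left 1801 members.

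Most members lay inside genes and away from their starts. Of the 1885, 317 (16.8%, 95% Wilson interval 15.2 to 18.6, counting error only) came within 2 kb of a start of a protein-coding gene, 1101 (58.4%) lay elsewhere in a gene body and 467 (24.8%) lay outside. Over all 16732 microglia regions the shares were 33.6%, 45.7% and 20.7%, over the microglia-only regions 14.2%, 56.1% and 29.7%, and over the regions of all 8 lists 59.4%, 27.9% and 12.7%. The opposite set was mostly at starts or in bodies, with 44.2% each. Start sites came from the promoter table for 79.9% of the 21887 protein-coding genes, and both gene ends stood in for the others. The share at starts was 24% with all annotated genes and 22.8% with peaks scoring 50 or more. The median member was 1388 bp wide (interquartile range 1048 to 1804), against 1276 bp over all microglia regions, 1093 bp for the microglia-only ones and 1353 bp for those of all 8 lists.

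By distance to the nearest start site in the table, members lay slightly farther out than microglia-only regions. The centre of the median member was 26582 bp from one, against 24162 bp for microglia-only regions, 17453 bp for all microglia regions and 1692.5 bp for regions of all 8 lists. Members held more centres under 1 kb from a start than microglia-only regions, 11.4% against 5.97%, and fewer at 1 to 5 kb, 6.15% against 10.7%. Genes without a start in the table lengthen these distances in every set. The table held no start on chromosome 18, so its 64 members were left out of these distances and 1821 were measured. Members were on every chromosome from 1 to 19, on X and on Y, and made up 12.3% of the microglia regions of chromosome 1, 14.2% of those of chromosome 16, 8.02% of those of chromosome 19 and 8.17% of those of chromosome X.

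**Figure D3:**
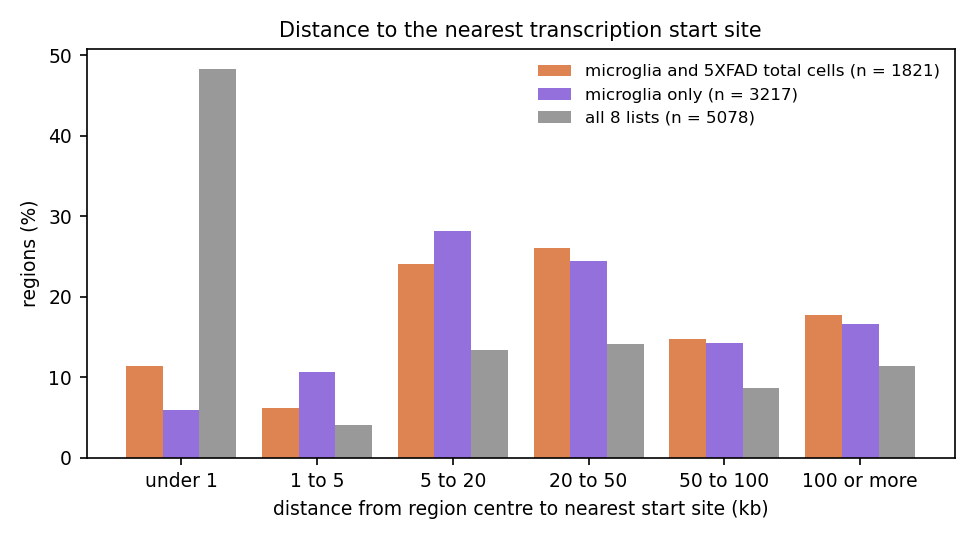
Share of regions (vertical axis, %) by distance from the region centre to the nearest start site (horizontal axis, kb) for members, microglia-only regions and regions of all 8 lists. Members are spread over 5 kb and more, like the microglia-only regions, while 48.3% of the regions of all 8 lists lie under 1 kb.

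A member lay in the body or within 2 kb of 1260 of 21887 protein-coding genes (5.76%), against 146 genes (0.667%) for the opposite set, and within 2 kb of the start of 357 genes (1.63%). In 285 of the 1260 (22.6%) no WT total cell peak was listed anywhere in the gene or its flanks. Longer genes offer more room, and the median length was 53.9 kb for genes with a member and 17.2 kb for all. Of 417 genes in 21 lists drawn up by function and cell type, 47 (11.3%) held a member, with 71 regions in all. No WT total cell peak was listed in 11 of these 47 genes, a share near that of all 1260. Counts for single lists moved with the libraries used, most without 5XFAD total cells 2, where disease-associated, Alzheimer risk and myeloid factor genes had 9 each, Fc receptor signalling 7, Toll-like receptor signalling 6, chemokines 5, interferon and lipid genes 3 each and the NADPH oxidase 2. A library left out loosens the rule, so such counts can rise by construction. The shares of whole lists below are read against 5.76% of all genes. Of the genes that held any region of all 4 microglia lists, 15.2% held a member. On this base the homeostatic and Fc receptor lists (14.3%, 3 of 21 genes each) were near that share. The Toll-like receptor list had 12% (3 of 25), the lipid list 7.14% (1 of 14) and the interferon list 5.88% (1 of 17). Higher were the chemokine (22.2%, 2 of 9), disease-associated and Alzheimer risk (26.3%, 5 of 19 each) and lysosome lists (27.3%, 6 of 22). Histone acylation (28.6%, 4 of 14), actin (36.8%, 7 of 19) and myeloid factor lists (37.5%, 6 of 16) were higher too. The counts are small, and no difference was tested.

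**Figure D4:**
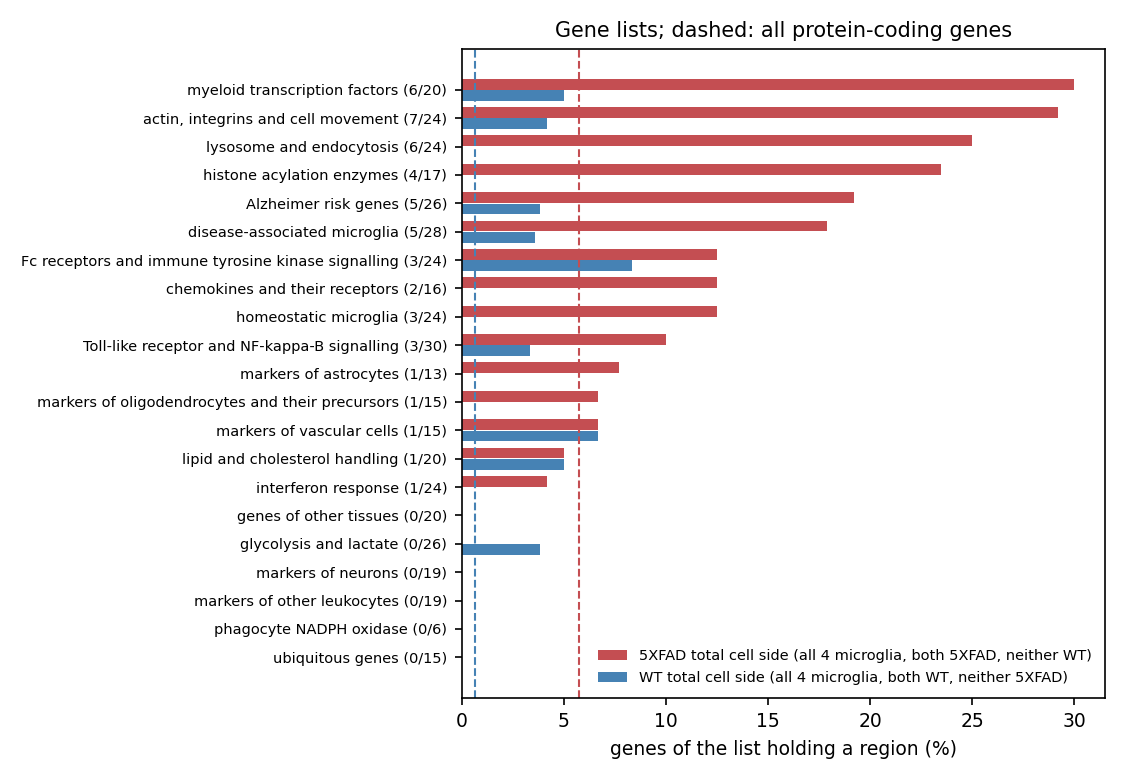
Share of the genes of each list (horizontal axis, %) that hold a member, above the share that hold a region of the opposite set, with the dashed line at the 5.76% of all protein-coding genes for members. Myeloid transcription factors (6 of 20) and actin and integrin genes (7 of 24) have the longest bars, and lists of neurons, other leukocytes and glycolysis have none for members.

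Homeostatic microglia genes held a member in 3 of 24 cases (12.5%), although 15 of the 24 held a microglia-only region. The count was 8 without 5XFAD total cells 2, 7 without WT total cells 2 and 5 without WT microglia 1. P2ry12, the purinergic receptor that guides microglial processes, had 3, and these also lie in the overlapping gene Med12l. The one upstream of its start (chr3:59264734-59265359) stood at percentile 94.5 and 87.8 in 5XFAD microglia and 91.3 and 87.8 in WT microglia, with 75.5 and 59.3 in 5XFAD total cells. The one just inside the gene (chr3:59259657-59261755) stood at 85.9 and 86.8 in 5XFAD microglia and 86.0 and 94.2 in WT microglia, with 57.2 and 5.64 in 5XFAD total cells, so that the second total cell list barely held it. Itgam, which encodes CD11b, the bead antigen, had 1 member near its 3′ end (chr7:128114453-128116802), at 67.0 and 78.3 in 5XFAD microglia and 51.9 and 64.2 in WT microglia, with 55.7 and 36.0 in 5XFAD total cells. No WT total cell peak was listed in Itgam, and the nearest was 120679 bp away. Tgfbr1, a receptor for TGF-beta, had a member that ranked low in total cells, at 4.96 and 26.0.

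Genes of disease-associated microglia, the state that gathers at amyloid plaques, held a member in 5 of 28 cases (17.9%), in 4 of them at a gene end or start. The member over Tyrobp (chr7:30412793-30414682), the adaptor through which TREM2 signals, ranked at 98.7 and 99.1 in 5XFAD microglia and 99.6 and 99.4 in WT microglia, with 65.3 and 36.0 in 5XFAD total cells. It was thus among the top peaks of every microglia list. Lgals3, expressed by activated macrophages, had a member over its start (chr14:47373507-47374744) at 91.8 and 91.9 in 5XFAD microglia and 23.4 and 77.5 in WT microglia, with 73.3 and 67.7 in 5XFAD total cells. Lpl, the lipoprotein lipase, which has no start site in the table, had 2 at or near its end of lower coordinate (chr8:68880382-68882005 and chr8:68882302-68883955), and each had percentiles of 14.1 and 44.6 in 5XFAD total cells. The second of them stood at 71.7 and 88.4 in 5XFAD microglia and at 11.3 and 42.8 in WT microglia, so that the genotypes did not overlap in rank, though ranks from lists of different lengths show no change. H2-D1 (chr17:35262456-35263116), an antigen-presenting molecule, stood at 47.6 and 71.6 in 5XFAD microglia and 50.9 and 57.2 in WT microglia, with 76.0 and 53.5 in 5XFAD total cells. The member counted for Axl, a phagocytic receptor kinase, lies downstream of it, within 2 kb of the start of Hnrnpul1. No WT total cell peak was listed in Tyrobp, Lgals3, Lpl or H2-D1, as in 22.6% of all genes with a member.

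Myeloid transcription factors held a member in 6 of 20 cases (30%), the highest share of the lists with all peaks and libraries, and are long genes, with a median of 43.1 kb. With scores of 50 or more they had 2, behind 6 actin and integrin genes and 5 lysosome genes. Ets1, an ETS family factor, had 3 members, and the middle one (chr9:32730643-32732334) stood at 98.4 and 99.5 in 5XFAD microglia and 95.1 and 99.1 in WT microglia, with 80.6 and 74.0 in 5XFAD total cells. Mitf, a regulator of lysosome genes, had 1, at 90.7 and 93.7 in 5XFAD microglia and 94.3 and 92.8 in WT microglia, with 43.0 and 14.0 in 5XFAD total cells. The ETS factors Fli1 and Elf1 and the MADS-box factor Mef2c had 2 each, and Stat3, which transmits cytokine signals, had 1. All 6 genes also held regions with a WT total cell peak, between 4 (Stat3) and 20 (Mef2c) of them.

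Innate sensing and chemotaxis genes gave smaller counts, 3 of 30 for Toll-like receptor and NF-kappa-B signalling, 2 of 16 for chemokines and their receptors and 1 of 24 for the interferon response. The member over the start of C5ar1, the receptor for the complement fragment C5a (chr7:16257838-16259666), stood at 98.3 and 98.2 in 5XFAD microglia and 92.3 and 94.6 in WT microglia, with 79.7 and 79.6 in 5XFAD total cells. That over the start of Ccl12, a chemokine (chr11:82101139-82102720), stood at 94.3 and 91.8 in 5XFAD microglia and 93.9 and 98.7 in WT microglia, with 74.8 and 29.4 in 5XFAD total cells. Neither gene held a WT total cell peak, and the nearest one to the Ccl12 member was 202885 bp away. Tlr6, a receptor for bacterial lipopeptides, had a member over an annotated start, at 78.3 and 90.6 in 5XFAD microglia and 71.4 and 81.7 in WT microglia, with 85.0 and 72.0 in 5XFAD total cells. Irak2, a kinase that transmits Toll-like receptor signals, and Tnfaip3, the deubiquitinase A20 that restrains NF-kappa-B, had 1 member each inside the gene. Ifnar2, a subunit of the type I interferon receptor, was the only interferon gene with one, at 99.1 and 99.2 in 5XFAD microglia and 92.9 and 94.3 in WT microglia, with 86.3 and 87.3 in 5XFAD total cells. Of the 24 interferon genes, 12 held a region of all 8 lists.

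**Figure D5:**
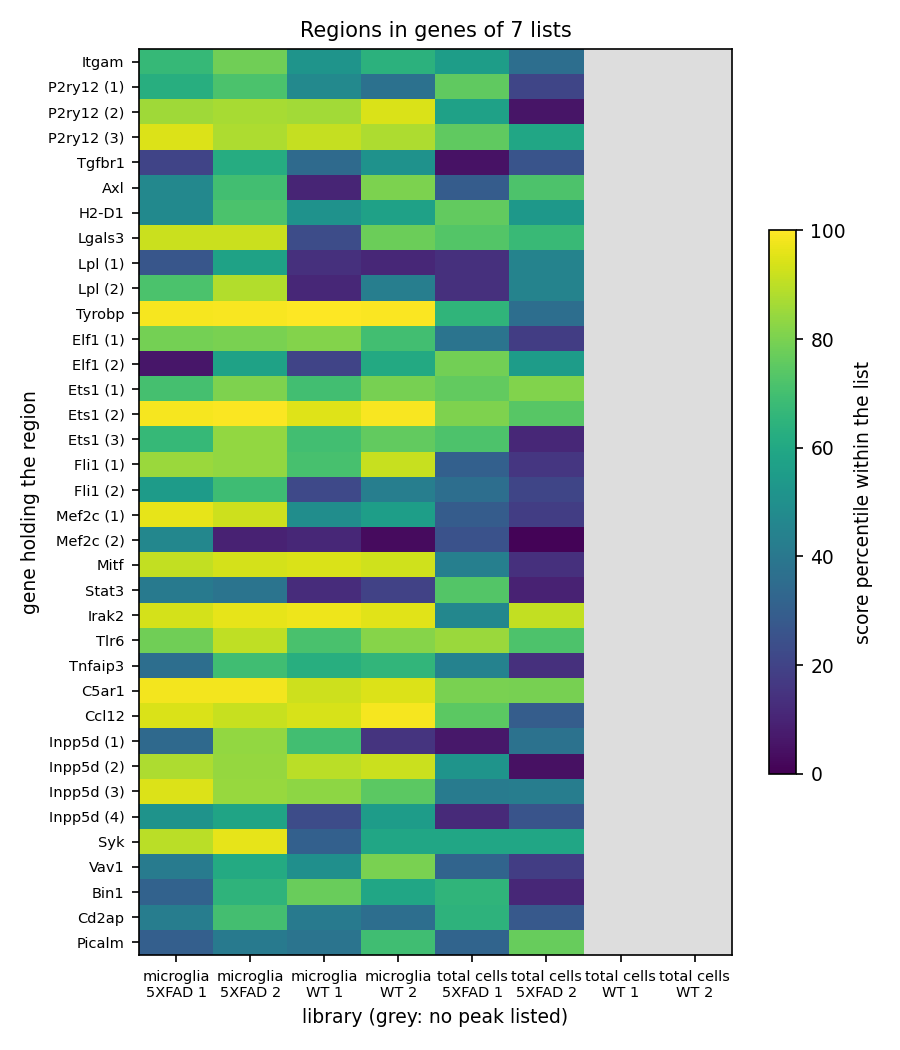
Score percentile within each list (colour) of 36 members in 25 genes of 7 lists (rows) in the 8 libraries (columns), with grey where no peak was listed. The WT total cell columns are grey throughout by the rule. Most rows have a higher percentile within the microglia lists than within the 5XFAD total cell lists.

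Signalling and movement genes followed. Fc receptor and tyrosine kinase signalling had 3 of 24 genes with a member. Syk, the kinase downstream of TYROBP, had 1, at 89.5 and 96.4 in 5XFAD microglia and 30.5 and 59.1 in WT microglia, with 59.2 and 59.3 in 5XFAD total cells. Vav1, a signalling protein of immune cells, had 1, and neither Syk nor Vav1 held a WT total cell peak. Inpp5d, which encodes the lipid phosphatase SHIP1 and is also an Alzheimer risk gene, had 4, spread from 17231 to 76999 bp inside its start. Actin, integrin and cell movement genes had 7 of 24 (29.2%; median length 38.5 kb): Wasf2, an activator of the Arp2/3 complex, had 3, the integrins Itgb2 and Itgav 2 each and Itga6 and Itgb5 1 each, and the Rac activators Elmo1 and Dock2 1 each. The last Wasf2 member (chr4:133175256-133178169) stood at 76.2 and 87.0 in 5XFAD microglia and 51.9 and 87.9 in WT microglia, with 79.3 and 88.9 in 5XFAD total cells. The NADPH oxidase of phagocytes had a member in 0 of 6 genes, although 5 of them held a region of all 4 microglia lists.

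Lysosome and endocytosis genes had 6 of 24 (25%), 3 of them at the start, and 12 without 5XFAD total cells 2. Atp6v1a, a subunit of the proton pump that acidifies lysosomes, had 2, and the one over its start (chr16:44138257-44139712) stood at 96.2 and 97.6 in 5XFAD microglia and 95.0 and 93.9 in WT microglia, with 94.0 and 90.1 in 5XFAD total cells. This region is shared with the neighbouring gene Naa50, and a WT total cell peak lay 714 bp from it. Atp6v0d1, another subunit of that pump, had 1, at 94.8 and 94.0 in 5XFAD microglia and 81.6 and 81.7 in WT microglia, with 90.5 and 75.9 in 5XFAD total cells. Npc1, which exports cholesterol from lysosomes, had 3, and its middle one stood at 94.8 and 97.8 in 5XFAD microglia and 88.1 and 93.7 in WT microglia, with 93.4 and 75.9 in 5XFAD total cells. Rab5c had 2, and Tfe3, a factor that switches on lysosome genes, and Snx3, a sorting nexin, had 1 each. Lipid and cholesterol genes had 1 of 20, Soat1, which esterifies cholesterol, with 2 regions.

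Alzheimer risk genes had 5 of 26 (19.2%), and their median length was 65.3 kb. They were Inpp5d and Mef2c, counted above, and 3 genes of endocytosis and membrane shape, Bin1, Picalm and Cd2ap, with 1 each. The Bin1 member stood at 31.3 and 64.9 in 5XFAD microglia and 77.1 and 59.1 in WT microglia, with 65.3 and 11.0 in 5XFAD total cells. Histone acylation enzymes had 4 of 17 (23.5%). Ep300, which encodes p300, had 1 member (chr15:81592836-81594819) at 87.1 and 95.8 in 5XFAD microglia and 76.6 and 82.2 in WT microglia, with 73.3 and 64.6 in 5XFAD total cells. The acetyltransferase genes Kat7 and Kat2b had 1 each, over the start in Kat7, and Kat6b had 2. None of the 26 glycolysis and lactate genes held a member, although 18 held a region of all 4 microglia lists. With 1 library left out this count was 0 to 3, and it was 3 without 5XFAD total cells 2 and 3 without WT total cells 1.

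Markers of other cells held members in single genes or in none. No member lay in any of 19 neuronal markers, 19 markers of other leukocytes, 20 genes of other tissues or 15 ubiquitous genes. Of 15 oligodendrocyte markers, only Mbp, which encodes myelin basic protein, held 1. Of 13 astrocyte markers, only Slc1a3, a glutamate transporter, held any, with 2, and of 15 vascular markers only Pecam1, an endothelial adhesion molecule also found on myeloid cells, with 3. These were 6.67%, 7.69% and 6.67% of the markers, near the 5.76% of all genes, and 1 of 3 genes with a region of all 4 microglia lists in each case (33.3%, against 15.2% of all such genes). The Mbp region stood at 97.0 and 93.8 in 5XFAD microglia and 84.5 and 89.5 in WT microglia, with 67.8 and 36.0 in 5XFAD total cells. In the microglia lists the Slc1a3 regions stood between 88.1 and 97.9, and the Pecam1 regions between 58.6 and 95.6. At App, which encodes the amyloid precursor protein, and at Thy1 no member was listed. Of the 47 listed genes, 28 no longer held a member with peaks scoring 50 or more, among them all 5 Alzheimer risk genes and all disease-associated genes but H2-D1, and 13 held one under all 15 alternatives. The 13 were Atp6v0d1, Atp6v1a, C5ar1, Ep300, Ets1, Ifnar2, Irak2, Itgav, Itgb5, Npc1, P2ry12, Tlr6 and Wasf2.

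Several members in 1 gene were the exception. Of the 1260 genes, 1052 held 1 member, 159 held 2 and 49 held 3 or more, and the median length of these 49 was 195 kb. Rad51b, a gene of homologous recombination that spans 551 kb, had 5. Those with 4 were Bach2, a transcriptional repressor, Cux1, a homeodomain factor, Itpr2, a calcium channel of the endoplasmic reticulum, Maml3, Inpp5d, Ldlrad4, Mvb12b, Ppp1r9a, Rbm47, Rtn1 and Snx29. Each of the 49 also held a region with a WT total cell peak.

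The members that ranked highest in all 6 lists were led by one inside Itpr2 (chr6:146112493-146113875). It stood at 96.2 and 98.1 in 5XFAD microglia and 99.5 and 99.8 in WT microglia, with 97.5 and 98.1 in 5XFAD total cells, and the nearest WT total cell peak was 4699 bp away. The next, by the lowest of the 6 percentiles, were inside Bbs9, a ciliary transport gene (93.6), outside genes nearest to Prl5a1 but 360297 bp from it (93.1), by Gm40369 (93.0), 175967 bp from Nrip1 (91.7), and in or at Snx29 (91.0), Cand1, a cullin regulator (90.9), Ankrd33b (90.3), Atp6v1a (90.1) and Synpo2, an actin-binding protein (88.8). The widest members were those in Dhx8, an RNA helicase (3914 bp), and Marf1 (3907 bp), one 75722 bp from Pmepa1 (3688 bp), one at the start of Zc3h12d, an RNA-degrading regulator (3649 bp), and one in Eps8, an actin regulator (3611 bp).

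Within microglia, the genotype contrast was not used to choose the members and was tested. The bases covered by peaks in each of the 16732 regions were compared between the 2 5XFAD and 2 WT microglia libraries on a log2 scale, centred on each library's median, with limma and Benjamini-Hochberg adjustment over all regions. Members were wider in 5XFAD microglia in 17 cases (0.902%) and narrower in 7 (0.371%) at an adjusted p under 0.05, close to the 0.896% (150) and 0.562% (94) of all regions. The groups did not overlap, with both 5XFAD libraries higher, in 18.2% of members and 17.2% of all regions, and with both lower in 22.5% and 23.6%. The median log2 difference, 5XFAD minus WT, was -0.05 for members and -0.06 for all regions. Without the centring these medians were 0.22 and 0.21, so their direction depended on it. The shares of members called were thus near those of all microglia regions.

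The region inside Maml3 had the smallest adjusted p. Its peaks covered 2170 and 2875 bp in 5XFAD microglia, against 563 and 312 bp in WT microglia. The log2 difference was 2.30 (SE 0.36, limma adjusted p = 0.00208). In WT microglia 2 the score of this region was 20, the lowest of that list. The region near the start of Hnrnpul1, downstream of Axl, was also wider, covering 1191 and 1234 bp in 5XFAD microglia and 297 and 456 bp in WT microglia (log2 difference 1.45, adjusted p = 0.0161). The top-ranked region in Itpr2 was narrower, covering 435 and 517 bp in 5XFAD microglia against 1162 and 1338 bp in WT microglia (log2 difference -1.67, adjusted p = 0.00905). Among the 10 members with the smallest adjusted p, those nearest to Mturn, Zc3h12d, Ccny and Ildr2 were wider too, by 1.57 to 1.91, and those in or nearest to Gcnt2, Pip4k2a and Dip2c were narrower, by log2 differences of -1.42 to -1.66. None of these calls was made without the centring, or with the replicate number as a block, where no region passed in limma. At an unadjusted p under 0.05, 226 members passed in the fit as described, 145 without centring and 196 with the block. Leaving out 1 microglia library at a time gave between 2 (without 5XFAD microglia 1) and 56 (without WT microglia 2) wider members, with 3 without 5XFAD microglia 2, and between 0 and 16 narrower ones without the same 2 libraries, 5XFAD microglia 1 and WT microglia 2. Widths were also simulated with independent errors and 200 of 16732 regions changed. On them this test found 12% of changes of 1 on the log2 scale and 99% of changes of 2. False calls numbered 3 and 15. Differences shared by many regions of a library were not simulated, so these shares need not hold for the real lists.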

How the data were processed

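The deposited files are 1 headerless peak list per library, with chromosome, start, end and a whole-number score of at least 20, whose unit is not stated. Per the submitters' processing notes, the authors used fastp 0.19.6, Bowtie2 and deepTools with GRCm38 (mm10). Not given in the sources used here are the peak caller and any control. The deposited score served only as a rank within a list, and the deposited coordinates (starts taken to be counted from 0) are printed counted from 1. No reads or counts were used, so depth is unknown.

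Peaks were merged with pandas 2.3.3 in Python 3.11.15, and a simulated check of merging gave 0 mismatches in 2760 presence calls. Widths were fitted with limma 3.58.1 in R 4.3.3. Genes and promoters came from RefSeq GRCm38.p6, and all 417 listed genes matched. Named were listed genes with a member, the nearest genes of the 10 members of highest lowest percentile, of the 5 widest and of the 10 first by width test, and genes with 3 or more members. Members and lists were chosen with earlier results of these data known. P-values measure only the spread between these libraries, which may be technical.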

Additional observations from a re-analysis of the deposited data

How the results depend on the processing

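The count of 1885 members stayed within 1.5 times under 12 of 15 alternatives: it was 1366 with scores of 50 or more, 1433 with equal list lengths and 1801 to 1889 under the other ways of joining and counting. It was 985 with the higher-scoring 50% of peaks and ran from 1882 to 3748 when a library was left out. A library left out drops 1 requirement of the rule, so higher counts are partly built in. The opposite set of 138 fell to 83 with scores of 50 or more and 51 with the higher-scoring 50%, and ran from 137 to 654 with a library left out. Genes with a member numbered 724 with the higher-scoring 50% and 1259 to 2191 with a library left out. In regions held by no microglia list, the ratio of 5XFAD to WT total cell regions, 0.488 with all libraries, was 1.2 without 5XFAD total cells 1, 3.03 without 5XFAD total cells 2 and down to 0.172 without WT total cells 2; a side with 1 library keeps more regions by construction. This alternative was chosen after seeing the data. Regions of all 4 microglia lists favoured 5XFAD in each of these settings (3.76 to 15.1).

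The share of members at starts, 16.8%, was 22.8% with scores of 50 or more, 15.2% and 23.6% with windows of 1 and 5 kb, 24% with all annotated genes and 19.8% with both ends of every gene, an alternative chosen after seeing the data. Microglial width calls depended most on the settings. Of the 17 wider and 7 narrower members, 0 and 0 were left without centring, and 34 and 15 were called with the widest peak. With a library left out they ran from 2 to 56 and from 0 to 16. Over all regions, the 150 wider and 94 narrower calls became 0 and 0 without centring, the narrower ones 178 with the widest peak, and they ran from 19 to 400 and from 18 to 180 with a library left out. The replicate block gave 0 calls in either direction among members and all regions. The labels do not say whether replicate numbers pair the samples. Deviations of same-numbered microglia libraries correlated at 0.101, over 2 pairs. Centring had removed any shift of a whole library, so this value cannot settle the pairing. The causes of these shifts were not tested. Depth is unknown, and with 2 libraries a group the width test found 0% of simulated log2 changes of 0.5.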
